A study of Danio rerio with 35 samples.

Results

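A list of 9 genes that mark B and T lymphocytes was followed in all RNA-seq tables of a study on granulins in the adult zebrafish telencephalon. The list held 4 B cell genes (cd79a, cd79b, pax5 and cd37) and 5 T cell genes (lck, zap70, cd28, cd4-1 and cd8a), which is 9 of the 26282 gene identifiers in any of the tables. Symbols were matched to Ensembl identifiers without regard to case. All 9 genes were measured in the telencephalon table, whereas cd79b was not analysed here in Olig2+ cells and cd8a not in Mpeg1+ cells.

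The animals were grna-/-;grnb-/- double mutants, referred to as mutant, and wildtype fish. Whole telencephalon gave 20 libraries, 5 each of old mutant, old wildtype, young mutant and young wildtype, with young meaning 5 months and old 18 months. Cells sorted by FACS from young telencephali gave 8 Olig2+ libraries (4 mutant and 4 wildtype, from olig2:DsRed reporter fish) and 7 Mpeg1+ libraries (4 mutant and 3 wildtype, from mpeg1:mCherry reporter fish), and each sorted library came from 3 pooled telencephali. A reporter sort collects every cell in which the promoter is or was active, so it is not limited to the cell type the line is used for. Values are normalised counts, meaning reads per gene divided by a library size factor. According to the study's methods the mutant and wildtype fish without a reporter were siblings. For the reporter lines used for sorting no shared parents are stated, so in sorted cells line and genotype cannot be told apart. No source used here ties single libraries to a family, and p-values therefore measure only the spread between these samples.

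B cells recognise antigen through a membrane antibody that signals by the paired chains Cd79a and Cd79b, and their identity depends on the transcription factor Pax5. In T cells the kinases Lck and Zap70 relay the signal of the T cell receptor, Cd28 adds a co-stimulatory signal, and Cd4 and Cd8 are the co-receptors of helper and cytotoxic T cells. These roles are best known from mammals. The healthy brain parenchyma holds few lymphocytes, and in zebrafish the mpeg1 promoter is active in B cells as well as in macrophages and microglia.

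Several properties of the libraries touch the results. The sum of reads assigned to genes was 13.9 to 29.4 M (M, 1e+06 reads) in telencephalon, 6.38 to 59.3 M in Olig2+ cells and 6.11 to 31.6 M in Mpeg1+ cells. Mutant Olig2+ libraries were shallower (6.38 to 21.8 M) than wildtype ones (37.1 to 59.3 M). Among the Mpeg1+ libraries labelled mutant, numbers 1 and 2, and likewise 3 and 4, were alike, since the chi-square per low-count gene was 1.44 and 1.66 within these pairs, against 19.8 to 21.1 for the other mutant Mpeg1+ pairs. Each call among the 9 lymphocyte genes in Mpeg1+ cells is therefore also given with every alike pair averaged to 1 sample. Wildtype Mpeg1+ library 2 stood apart from the other wildtype libraries. The targeted gene grnb averaged 15.8 ± 6.67 and 16.7 ± 3.37 normalised counts in old and young mutant telencephalon, against 89.5 ± 23.6 and 716 ± 189 in old and young wildtype (SD, n = 5 each). In Olig2+ cells grnb was at 57.5 to 205 in mutant and 307 to 472 in wildtype libraries. In Mpeg1+ cells, however, the libraries labelled mutant held 499 to 635 normalised counts of grnb, against 51.3 to 268 in those labelled wildtype, which goes against the labels. The other targeted gene, grna, overlapped there, at 32551 to 35094 in those labelled mutant and 30190 to 63711 in those labelled wildtype. In telencephalon, 7 libraries were high in pineal genes (median 442 to 693 normalised counts, against 4.40 to 30.6 in the other 13), namely young wildtype 1, 4 and 5, young mutant 2 and 4, old wildtype 1 and old mutant 4.

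The sorted populations were checked against their markers. The microglial receptor gene csf1ra was at 811 to 991 reads per 1e+06 reads assigned to genes (RPM) in Mpeg1+ libraries labelled mutant and at 199 to 784 in those labelled wildtype, against 3.13 to 18.8 in telencephalon. Another microglial gene, P2RY12, went the other way, at 11.9 to 15.1 RPM in Mpeg1+ libraries labelled mutant and 19.97 to 62.5 in those labelled wildtype. In telencephalon P2RY12 did not exceed 0.454 RPM. The oligodendroglial transcription factor gene OLIG2 was at 7.91 to 33.2 RPM in mutant and 35.9 to 85.8 in wildtype Olig2+ libraries. Young telencephalon held 31.9 to 41.1 RPM of it in mutant and 28.7 to 33.6 in wildtype fish, and both ages together 12.8 to 51.5. SOX10 was lower in all 8 Olig2+ libraries (0 to 5.10) than in telencephalon (13.4 to 25.4). Beside young telencephalon of the same genotype, OLIG2 was thus enriched in the wildtype but not in the mutant Olig2+ libraries, and SOX10 in neither.

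The level of each lymphocyte gene was first set side by side across the populations, in RPM. Because the tables were made separately, no test was made across them. The B cell genes were highest in the Mpeg1+ libraries labelled mutant and had few reads in telencephalon. In those labelled wildtype, cd79a was at 3.06 to 4.64 RPM, whereas mutant Olig2+ libraries held 2.60 to 7.16 RPM of it. Summed over cd79a, cd79b, pax5 and cd37, they reached 35.5 to 49.7 RPM in Mpeg1+ cells labelled mutant and 5.89 to 23.2 RPM in those labelled wildtype. The sum without cd79b was 2.81 to 7.43 RPM in mutant and 0.51 to 2.85 RPM in wildtype Olig2+ libraries. In telencephalon the sum of all 4 ran from 0.43 to 1.07 RPM in old mutant and 0.12 to 0.68 RPM in old wildtype libraries, and from 0.38 to 0.94 RPM in young mutant and 0.82 to 1.40 RPM in young wildtype libraries. Summed, the T cell genes were spread more evenly, but the sum hides opposite levels of single genes. In Mpeg1+ libraries labelled mutant lck was at 0 RPM, against 2.29 to 7.26 RPM in those labelled wildtype. The co-receptor gene cd4-1 was at 5.49 to 7.998 RPM in those labelled mutant and 0.0344 to 5.73 RPM in those labelled wildtype. In telencephalon cd4-1 did not exceed 0.634 RPM. The sum of lck, zap70, cd28 and cd4-1 was 7.28 to 9.65 RPM in mutant and 7.29 to 14.2 in wildtype Mpeg1+ libraries, and the sum with cd8a was 1.88 to 4.23 in mutant and 2.16 to 3.91 in wildtype Olig2+ libraries. In telencephalon the T cell sum was 2.23 to 3.24 RPM in old mutant and 1.93 to 3.72 RPM in old wildtype libraries. The young libraries held 3.05 to 4.61 RPM in mutant and 4.45 to 6.59 RPM in wildtype fish.

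**Figure D1:**
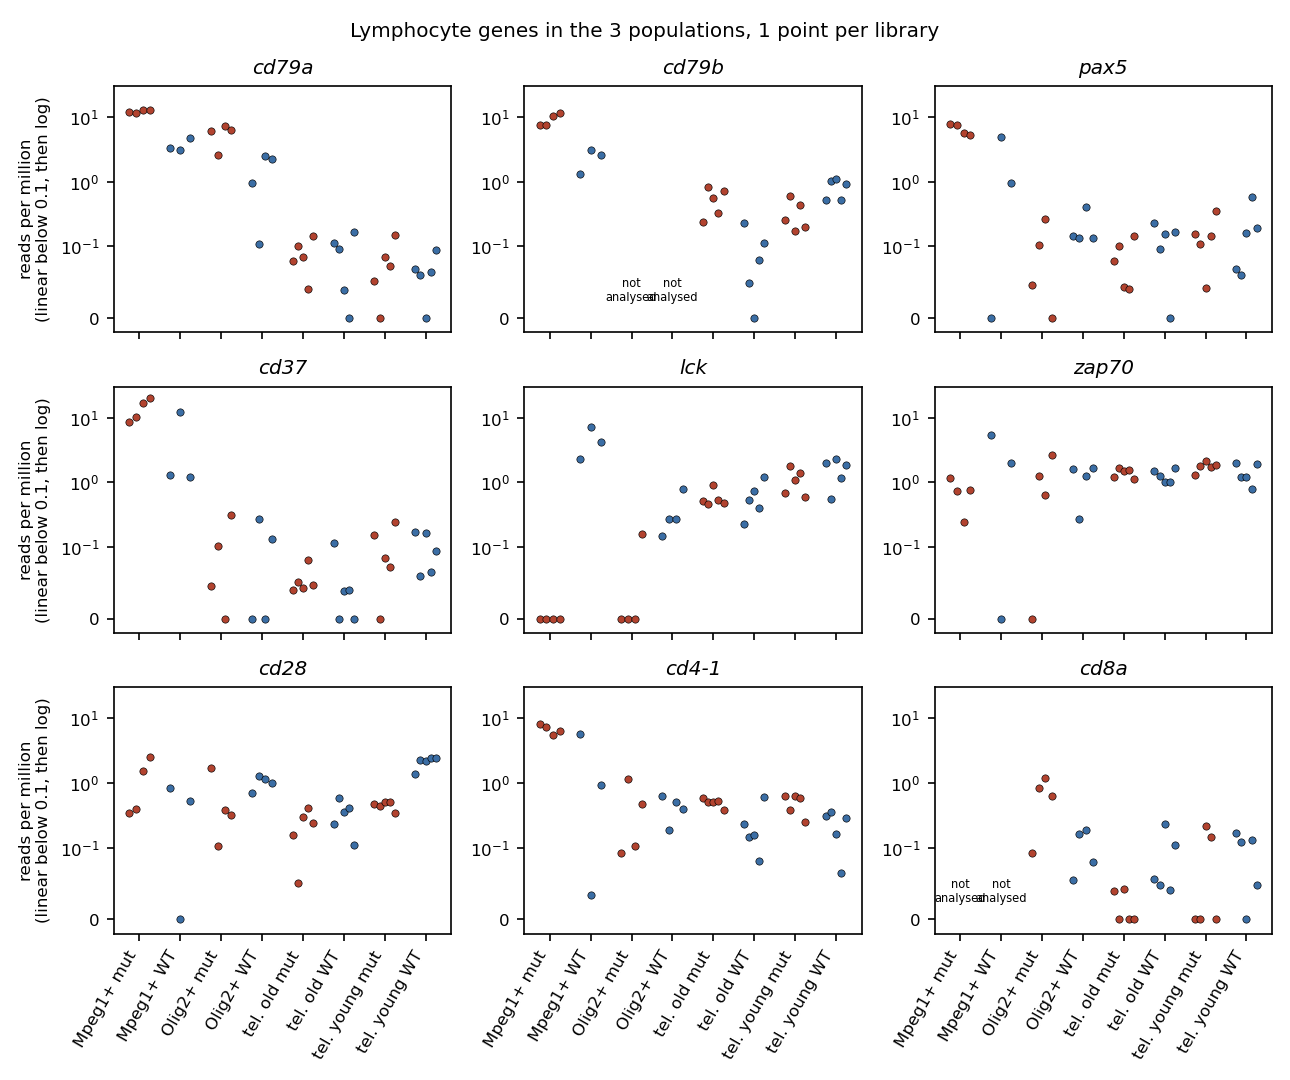
RPM (linear below 0.1, then log scale) of each lymphocyte gene in every library, with mutant libraries in red and wildtype ones in blue. Each B cell gene is highest in the Mpeg1+ libraries labelled mutant (cd79b was not analysed in Olig2+ cells), whereas lck has no read in the 4 Mpeg1+ libraries labelled mutant and is present in all 20 telencephalon libraries.

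In Mpeg1+ cells the comparison asked what the loss of both granulins changes in sorted brain macrophages. In the libraries labelled mutant the B cell receptor's signalling chain genes cd79a and cd79b were higher, while the T cell kinase lck was lower. This did not hold for all chains of the receptor. Outside the list, the antibody heavy chain gene ighm was lower (log2 fold change -2.05, adjusted p = 0.134 in limma) and ighd was higher, neither of them called. Of the 8 lymphocyte genes tested, cd79a and cd79b were upregulated and lck was downregulated, that is 3 of 8, against 8.5% of the 21155 genes tested. By direction this was 2 of 8 upregulated, against 4.93%, and 1 of 8 downregulated, against 3.57%. Calls are from limma's moderated test, with adjusted p no larger than 0.05 together with a log2 change of 1 or more in size, and all fold changes are on a log2(normalised count + 1) scale, on which the size of a change depends on the added count wherever libraries are at or near 0. The median log2 fold change was 2.11 over the 8 genes and 0.05 over all genes tested. Averaging the alike mutant libraries removed all 3 calls, and only 17 genes of the whole table, 8 higher and 9 lower, were then called. All genes here were measured in bulk, so that fewer cells of a type and less RNA per cell cannot be told apart.

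The gene cd79a (ENSDARG00000037473) encodes the alpha chain of the B cell receptor's signalling pair. It was at 278, 266, 303 and 298 normalised counts in the libraries labelled mutant, against 59.6, 70.28 and 88.7 in those labelled wildtype. The groups did not overlap, and the log2 fold change was 1.98 (SE 0.34, adjusted p = 0.0120). Here and below, the share of all genes whose groups do not overlap was not counted. Such separation can therefore not be read as particular to lymphocyte genes. With the alike libraries averaged the change was 1.98 with an adjusted p of 0.349, and it was 1.96 (adjusted p = 0.0926) when wildtype library 2 was also left out.

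Its partner cd79b (ENSDARG00000104691), the beta chain, moved with it. The libraries labelled mutant held 172, 177, 241 and 261 normalised counts of cd79b, against 23.9, 69.5 and 48.6 in those labelled wildtype. Here too the groups did not overlap, and the change was 2.25 on the log2 scale (SE 0.50, adjusted p = 0.0300). The averaged libraries gave 2.25 (adjusted p = 0.424). Leaving out any mutant library also ended the calls of cd79a and cd79b, with adjusted p of 0.0584 to 0.0652 for cd79a and 0.0905 to 0.117 for cd79b.

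For the other B cell genes 1 wildtype library stood far above the other wildtype ones. The transcription factor gene pax5 (ENSDARG00000037383) was at 183, 175, 134 and 123 normalised counts in the libraries labelled mutant, against 0, 111 and 18.3 in those labelled wildtype, and the tetraspanin gene cd37 (ENSDARG00000075515), expressed on mature B cells, was at 196, 240, 397 and 466 against 23.9, 282 and 23.2. Wildtype library 2 was the highest wildtype library for both, below every mutant library for pax5 and within the mutant range for cd37. Neither was called, with log2 fold changes of 3.56 for pax5 (SE 1.41, adjusted p = 0.157) and 2.47 for cd37 (SE 0.89, adjusted p = 0.125). The size of both changes depended on single wildtype libraries and on the test. Without wildtype library 2 the change was 5.12 for pax5 (adjusted p = 0.0189) and 3.64 for cd37 (adjusted p = 0.00250), and 5 genes instead of 3 were called. Without wildtype library 1 it was 1.71 for pax5 (adjusted p = 0.191) and 1.89 for cd37 (adjusted p = 0.257), and cd37 was at 1.87 without wildtype library 3 (adjusted p = 0.260). The count-based tests gave 1.81 for pax5 in both edgeR and DESeq2 (adjusted p = 0.365 and 0.230), and 1.58 and 1.56 for cd37 (adjusted p = 0.329 and 0.216). With the alike libraries averaged as well, cd37 was the only member called (3.65, adjusted p = 0.0383).

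The proximal T cell receptor kinase lck (ENSDARG00000102525) had no read in any of the 4 libraries labelled mutant, which held 25.7 to 31.6 M reads each. In the 3 libraries labelled wildtype it had 14, 211 and 114 reads, or 41.7, 167 and 80.3 normalised counts. Against a floor of 3 reads per library the mutant level was at least 38.8-fold lower than the wildtype mean, at least 24.6-fold lower without wildtype library 2, and at least 15.3-fold lower than the lowest wildtype library. The test gave an adjusted p of 0.00386. With the alike libraries averaged the adjusted p was 0.166, so that the call was lost while the counts themselves stayed at 0. In both count-based tests the call remained (adjusted p = 0.0207 in edgeR's quasi-likelihood test and 9.36e-09 in DESeq2).

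The other T cell genes did not share this absence. The downstream kinase zap70 (ENSDARG00000015752) had 27.3, 17.2, 5.77 and 17.5 normalised counts in the libraries labelled mutant, against 98.4, 0 and 37.3 in those labelled wildtype, and the log2 difference was 0.03 (SE 1.53, adjusted p = 0.993). It was -1.30 in edgeR and -1.40 in DESeq2, also not called (adjusted p = 0.608 and 0.549). The co-receptor gene cd4-1 (ENSDARG00000070668), which zebrafish macrophages can also express, was at 187, 172, 129 and 147 against 104, 0.790 and 17.6. Its groups did not overlap, yet the wildtype spread left it uncalled (3.38, SE 1.23, adjusted p = 0.128), whereas without wildtype library 1 it was called (4.78, adjusted p = 0.0316). Without wildtype library 2 the change of cd4-1 was 1.84 (adjusted p = 0.0931), and it was 2.12 in edgeR and 2.00 in DESeq2 (adjusted p = 0.298 and 0.192). The co-stimulatory receptor gene cd28 (ENSDARG00000095070) split by the alike pairs, with 8.12 and 9.07 in mutant 1 and 2 and 36.3 and 58.3 in mutant 3 and 4, against 14.9, 0 and 9.86 in those labelled wildtype (1.93, SE 1.23, adjusted p = 0.357).

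**Figure D2:**
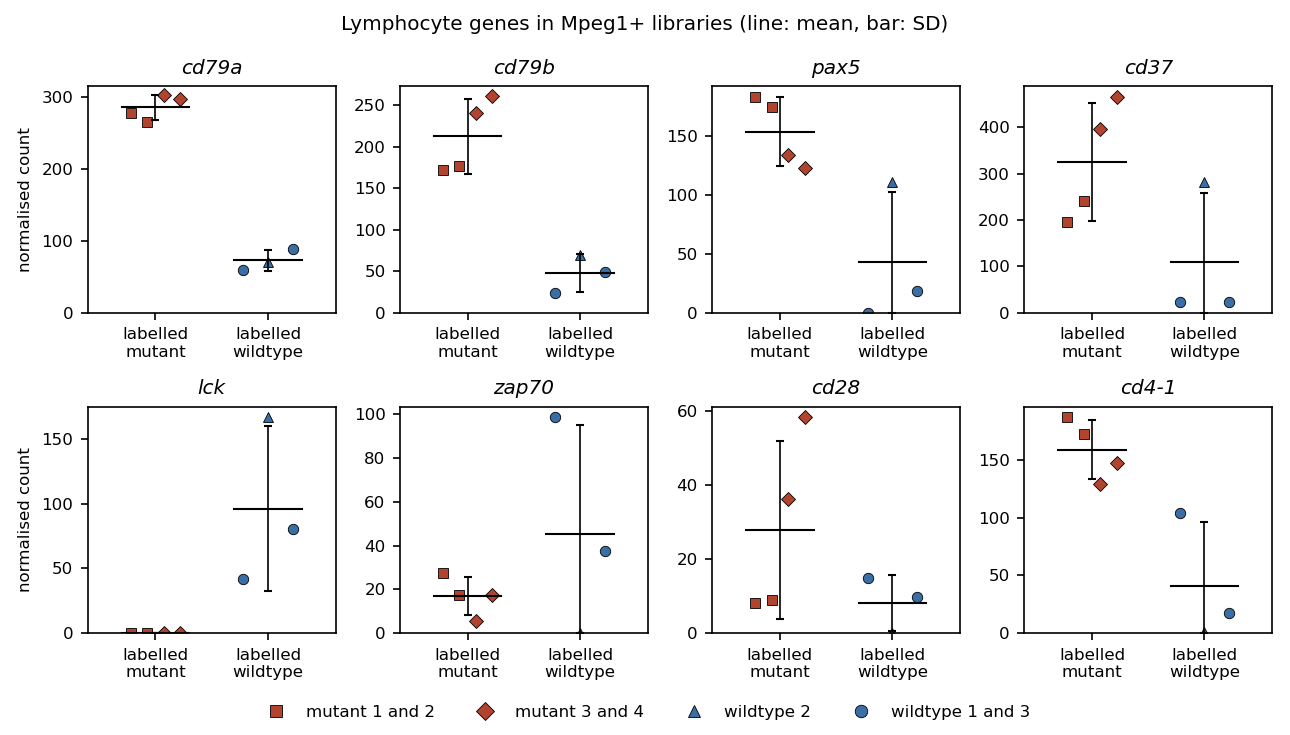
Normalised counts of the 8 lymphocyte genes tested in Mpeg1+ cells, 1 point per library, with the mean (line) and SD (bar) of the 4 libraries labelled mutant and the 3 labelled wildtype. Mutant libraries lie above all wildtype ones for cd79a, cd79b, pax5 and cd4-1, lck is at 0 in every mutant library, and wildtype library 2 (triangle) reaches 111 for pax5 and 282 for cd37. The share of all genes that separate likewise was not counted.

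Other genes of lymphocytes were read from lists, beside 4.93% of all genes higher and 3.57% lower. Of the B cell receptor signalling genes, 3 of 22 rose and none fell, namely cd79a, cd79b and the adaptor bcl10, which had 1661 to 1828 normalised counts in libraries labelled mutant, against 152 to 450 in those labelled wildtype (2.67, SE 0.35, adjusted p = 0.00451). Among B cell identity and antibody genes 1 of 22 rose, the plasma cell and lymphocyte factor irf4b, with 763 to 954 against 2.82 to 118 (4.74, SE 1.06, adjusted p = 0.0312). Of T cell receptor signalling genes 3 of 27 rose and 1 fell, which was lck. Among those that rose were the kinase PRKCQ (2.61, adjusted p = 0.00235) and the adaptor GRAP2 (1.22, adjusted p = 0.00873). The calls of these lists were made with the alike libraries counted separately. Medians over these lists were 0.32 for B cell receptor signalling, 1.69 for B cell identity and 0.16 for T cell receptor signalling, beside 0.05 over all genes.

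The remaining lists were T cell identity, cytokine receptors and homing (2 of 25 higher, il13 and il10ra), cytotoxic and NK-like genes (1 of 8 higher), antigen receptor recombination (1 of 10 lower, nhej1, a DNA repair gene) and pan-leukocyte genes (4 of 18 higher). Over all genes 4.93% were higher and 3.57% lower. The cytotoxic gene that rose was nitr10a, a member of the immune-type receptor family of bony fish, with 559 to 880 normalised counts in libraries labelled mutant, against 0, 0 and 0.704 in those labelled wildtype (adjusted p = 0.000310). It passed the filter, a mean of 5 over the table, only through the libraries labelled mutant. Most called genes of these lists are also used by cells other than lymphocytes.

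Markers of other cells moved with this comparison, in which 4.93% of all genes were higher and 3.57% lower. Leptomeningeal fibroblast genes summed to 2641 to 3402 normalised counts in the libraries labelled mutant, against 299669 to 526189 in those labelled wildtype, with 8 of 20 lower and the median log2 fold change at -4.16. Damage and heat shock genes summed to 2879697 to 3221312 against 163703 to 814497, with 8 of 17 higher. Ependymoglia genes summed to 85142 to 87122 against 133816 to 416551, with 8 of 14 lower and a median of -1.90. In these 3 lists the groups did not overlap, nor did they for neutrophil genes, at 12487 to 14622 against 6840 to 9667, although the median change of that list was -0.67. Microglia and macrophage genes summed to 1047539 to 1087863 against 639696 to 1210168, with 3 of 31 higher. The part of these differences in the lymphocyte result was not tested.

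In Olig2+ cells, sorted to study oligodendroglial cells, the B cell receptor chain gene cd79a was higher in mutants. The share of lymphocyte genes called was near that of all genes. Of the 5 lymphocyte genes that passed the filter, cd79a alone was called, 1 of 5, against 19.7% of the 22273 genes tested in either direction and 6.99% upregulated. The median log2 fold change was -0.15 over the 5 genes and -0.01 over all genes. Only 1 to 145 reads lay behind each value of cd79a, cd28, cd4-1 and cd8a, apart from zap70 with 0 to 88.

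The mutant Olig2+ libraries held 134, 100, 164 and 145 normalised counts of cd79a, against 21.0, 2.18, 51.9 and 50.6 in wildtype ones. All mutant libraries lay above all wildtype ones, and the log2 fold change was 2.69 (SE 0.80, adjusted p = 0.0325). The call was kept in DESeq2 (adjusted p = 0.0120) and lost in edgeR's quasi-likelihood test (adjusted p = 0.0602). It was also lost without wildtype library 1 or 2 or without mutant library 1, 3 or 4 (adjusted p = 0.0537 to 0.0786), and the change without wildtype library 2 was 1.78, against 2.69 with it.

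The cytotoxic co-receptor gene cd8a (ENSDARG00000044797) was at 2.02, 32.1, 26.9 and 14.5 normalised counts in mutant and 1.19, 3.27, 3.94 and 1.81 in wildtype Olig2+ libraries. Mutant library 1 lay within the wildtype range, and the change of 2.096 was not called (SE 0.94, adjusted p = 0.126). Without that library it was 2.85 (adjusted p = 0.0355). In DESeq2 the change of cd8a was 2.86 (adjusted p = 0.0237). Its mean was 18.9 normalised counts in mutant and 2.55 in wildtype libraries. It therefore passed the filter, a mean of 5 over the table, only through the mutant group.

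The remaining T cell genes overlapped between the groups. For zap70 the mutant libraries had 0, 48.1, 14.7 and 61.7 normalised counts, against 34.9, 5.45, 26.5 and 37.4 in wildtype (-0.58, SE 1.18, adjusted p = 0.758). The helper co-receptor cd4-1 had 2.02, 44.1, 2.45 and 10.9 in mutant, against 13.9, 3.81, 10.7 and 9.04 in wildtype Olig2+ libraries (-0.15, SE 0.97, adjusted p = 0.930). For cd28 the values were 37.3, 4.01, 8.57 and 7.26 in mutant, against 15.1, 25.6, 24.0 and 22.9 in wildtype (-1.02, SE 0.78, adjusted p = 0.368).

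Another 3 genes lay below the filter, a mean of 5 normalised counts over the table. The kinase lck had 0, 0, 0 and 1 reads in mutant Olig2+ libraries, against 8, 10, 16 and 29 in wildtype ones, and without the filter its log2 fold change was -2.37 (adjusted p = 0.0550). Mutant depth was lower, and the values in RPM were 0 to 0.157 in mutant and 0.145 to 0.771 in wildtype libraries, so the ranges overlapped. In the same libraries pax5 had 0 to 5 reads in mutants and 5 to 24 in wildtype, and cd37 had 0 to 2 and 0 to 10.

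**Figure D3:**
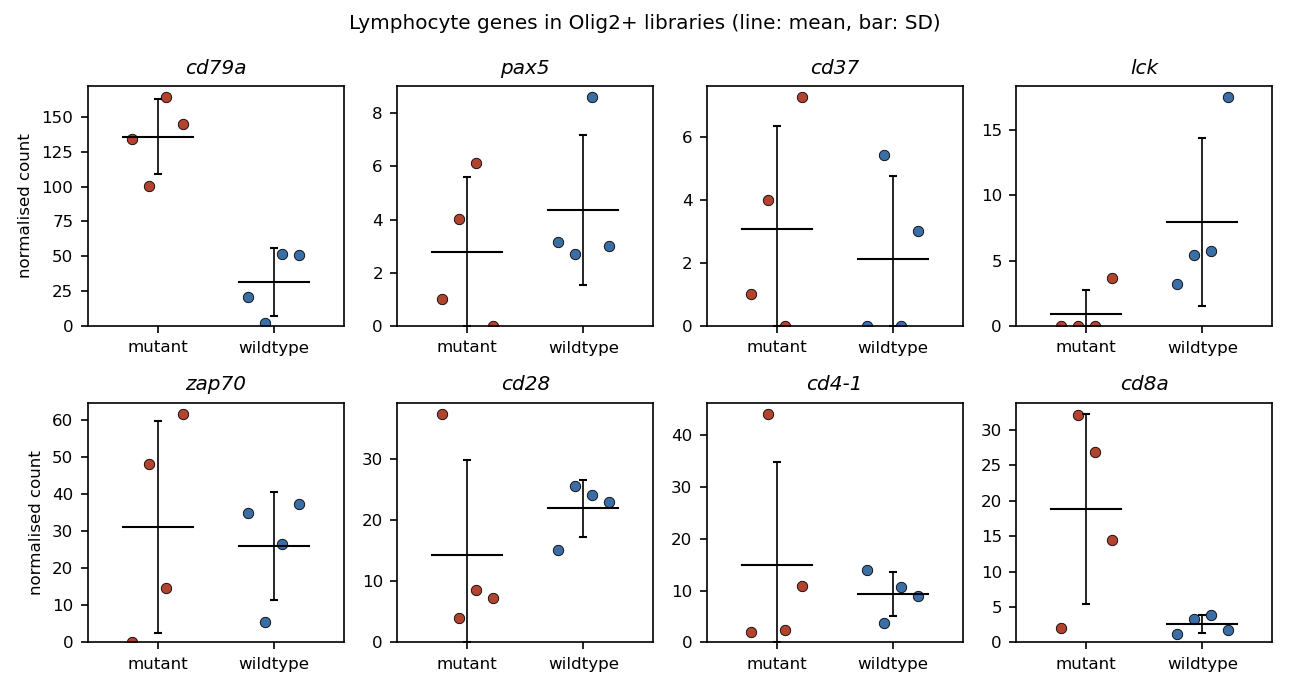
Normalised counts of 8 lymphocyte genes in Olig2+ cells, 1 point per library, with the mean (line) and SD (bar) of 4 mutant and 4 wildtype libraries. For cd79a the mutant libraries (100 to 164) lie above the wildtype ones (2.18 to 51.9), and lck has 1 read in the 4 mutant libraries together.

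In the other lymphocyte lists of Olig2+ cells a few genes were called, in both directions, against 6.99% of all genes upregulated and 12.7% downregulated. Of B cell receptor signalling genes 4 of 21 rose and 1 fell, among them cd79a, given above, and PTPN6 and INPP5D, phosphatases used by many leukocytes. Of B cell identity genes 3 of 18 rose: the receptor gene cd40 (181 to 654 normalised counts in mutant, against 74.8 to 146 in wildtype), the cytokine gene tnfsf13b and the antibody heavy chain gene ighm. In the mutant libraries ighm had 20.2, 52.1, 9.80 and 47.2 normalised counts, against 1.59, 0.545, 2.15 and 5.43 in wildtype ones (3.21, SE 0.85, adjusted p = 0.0206). T cell receptor signalling genes showed 2 of 26 higher and 1 lower, with cd40lg at 18.2 to 361 in mutant against 5.99 to 19.9 in wildtype (2.73, adjusted p = 0.0355). Of the cytotoxic genes 2 of 13 rose, both NK-lysin genes, with nkl.3 at 10.1 to 265 against 0 to 1.21 (adjusted p = 0.00389) and nkl.4 at 13.5 to 22.2 against 1.09 to 3.94 (adjusted p = 0.0454). Like cd8a, the genes ighm, nkl.3 and nkl.4 passed the filter only through the mutant libraries.

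In the list of T cell identity, cytokine receptors and homing 2 of 24 were higher, the receptor genes il10ra and il2rga, and TCF7, a T cell factor also used in Wnt signalling, was lower (-2.67, adjusted p = 0.0316). Pan-leukocyte genes were higher in 5 of 18 and recombination genes lower in 1 of 11, which was XRCC5, a DNA repair gene. Medians were 0.41 for B cell receptor signalling, 0.59 for B cell identity, 0.06 for T cell receptor signalling, 0.33 for T cell identity and -0.61 for the cytotoxic genes, beside -0.01 over all genes. Microglia and macrophage genes moved in the same direction, with 13 of 30 higher, a median of 1.38, and sums of 54081 to 264007 normalised counts in mutant against 17235 to 101382 in wildtype libraries. Erythrocyte genes were higher in 2 of 10, and over all genes 6.99% were higher. The part of these cells in the higher cd79a was not tested.

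In the telencephalon the comparisons asked how the transcriptome differs with age, with genotype, and between old wildtype and young mutant brains. Only cd79b, lck, zap70, cd28 and cd4-1 passed the filter, and each library held few reads of them, 52 or fewer for cd28, 20 or fewer for cd79b, 58 or fewer for lck, 15 or fewer for cd4-1 and 59 or fewer for zap70. The B cell chain cd79b and the co-stimulatory receptor cd28 carried most of the differences.

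With age in wildtype fish, 3 of the 5 genes fell and none rose, against 5.66% of 19877 genes downregulated 5.21% upregulated and 10.9% called in either direction. The median log2 fold change was -1.24 over the 5 genes and -0.01 over all genes. For cd28 the 5 old wildtype libraries had 4.58, 11.8, 7.25, 8.54 and 2.31 normalised counts, against 27.4, 45.0, 44.5, 46.8 and 48.5 in young wildtype. The groups did not overlap, and the log2 fold change was -2.58 (SE 0.39, adjusted p = 6.69e-05). The alternatives gave -2.79 to -2.14, and the call was kept wherever the gene was tested.

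The change of cd79b with age was of similar size. Old wildtype libraries had 4.58, 0.983, 0, 1.71 and 2.31 normalised counts of cd79b, which is 0 to 4 reads, against 10.04, 20.7, 21.7, 10.1 and 17.7 in young wildtype. Again no old library reached a young one, and the change was -2.70 on the log2 scale (SE 0.46, adjusted p = 0.000206). The alternatives gave -3.44 to -1.76, with the call kept wherever the gene was tested.

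The decrease of lck was smaller and less stable. The kinase had 4.58, 10.8, 15.3, 8.54 and 25.4 normalised counts in old wildtype, against 38.8, 11.0, 45.6, 22.8 and 36.4 in young wildtype libraries, and the groups overlapped. The log2 fold change was -1.24 (SE 0.42, adjusted p = 0.0290). The call was lost without young wildtype library 1, 3 or 5 or old wildtype library 1, 2 or 4 (adjusted p = 0.0513 to 0.0763), with only these 2 groups in the model (adjusted p = 0.0584), and without the libraries high in pineal genes (-0.67, adjusted p = 0.422). Of the other T cell genes, zap70 (-0.04, SE 0.24, adjusted p = 0.919) and cd4-1 (-0.02, SE 0.43, adjusted p = 0.975) were not called.

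In young fish the mutants resembled this in cd28. Young mutant libraries had 9.55, 8.98, 10.4, 10.1 and 6.96 normalised counts of cd28, all below the 27.4 to 48.5 of young wildtype (-2.08, SE 0.39, adjusted p = 0.000613). This was the only call, 1 of 5, against 3.82% of all genes downregulated and 8.79% called in either direction, with medians of -0.40 over the 5 genes and 0.00 over all genes. The young wildtype libraries served both this comparison and the one with age, so the 2 changes of cd28 are not independent. Without the libraries high in pineal genes the change was -2.22 (adjusted p = 0.0395).

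For cd79b the young mutant libraries had 5.30, 12.4, 3.45, 8.70 and 3.98 normalised counts, against 10.04 to 21.7 in young wildtype, and only young mutant library 2 reached the wildtype range. The change of -1.19 (SE 0.46, adjusted p = 0.0601) was not called, but it was called without that library (-1.42, adjusted p = 0.0371), without old wildtype library 1 or 3 (adjusted p = 0.0430 and 0.0399), without the libraries high in pineal genes (-2.097, adjusted p = 0.0436), in a model of only these 2 groups (adjusted p = 0.0328) and in DESeq2 (-1.27, adjusted p = 0.0485). The co-receptor cd4-1 had 12.7, 7.86, 13.0, 11.6 and 4.97 in young mutant, against 6.02, 7.30, 3.26, 1.26 and 5.60 in young wildtype libraries, an increase of 1.02 that was not called (SE 0.43, adjusted p = 0.0832) except without old wildtype library 5 (adjusted p = 0.0495). Neither lck (-0.40, adjusted p = 0.515) nor zap70 (0.40, adjusted p = 0.233) was called.

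**Figure D4:**
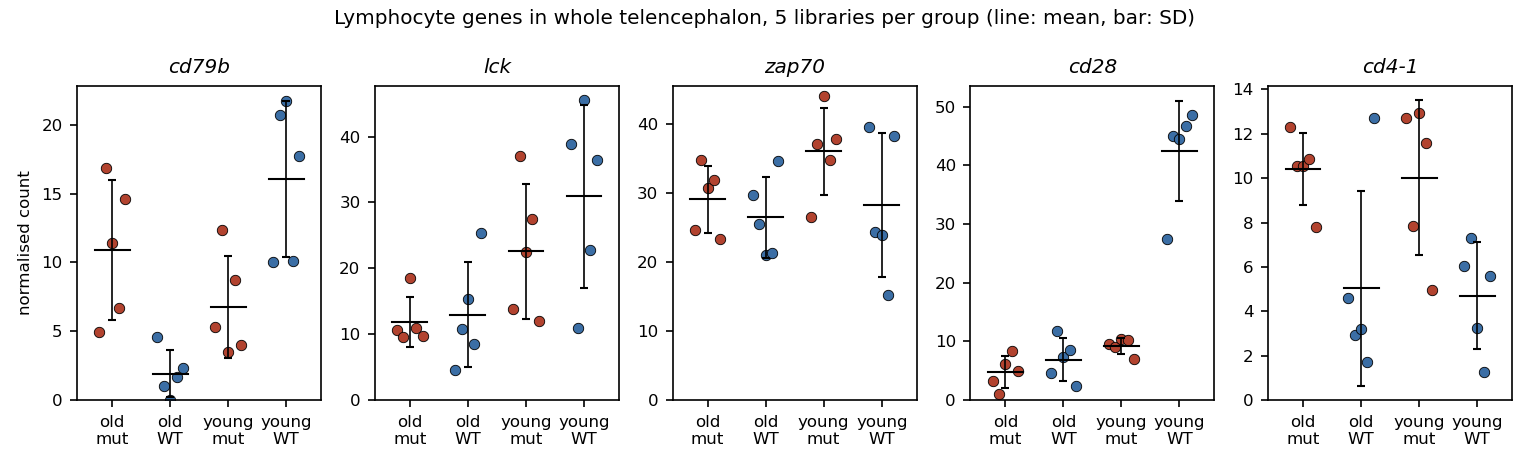
Normalised counts of the 5 lymphocyte genes tested in whole telencephalon, 1 point per library, with the mean (line) and SD (bar) of 5 libraries per group. For cd28 the 5 young wildtype libraries (27.4 to 48.5) lie above all 15 others, and for cd79b the old wildtype libraries (0 to 4.58) are the lowest group.

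Between old wildtype and young mutant brains cd79b was the only call, 1 of 5, against 4.62% downregulated and 7.84% called in either direction. Its 0 to 4.58 normalised counts in old wildtype stood against 3.45 to 12.4 in young mutants, with overlapping groups (-1.50, SE 0.46, adjusted p = 0.0189). The call ended with a pseudocount of 4 (-0.84, adjusted p = 0.0390), without the libraries high in pineal genes (-1.34, adjusted p = 0.0730), without old wildtype library 3 (-1.17, adjusted p = 0.0590) and without young mutant library 2 (-1.28, adjusted p = 0.0555). The difference in cd28 was -0.50 (SE 0.39, adjusted p = 0.344), and in cd4-1 it was -1.04 (SE 0.43, adjusted p = 0.0699). Without old wildtype library 5 or young mutant library 5, cd4-1 was called as well (-1.40 and -1.25, adjusted p = 0.0162 and 0.0464).

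In mutants age changed none of the 5 genes past the threshold in limma, against 1.32% of all genes called in either direction, 0.307% higher and 1.02% lower. At an unadjusted p under 0.05 there was 1 gene, cd28, and edgeR and DESeq2 called none. Old mutant libraries had 3.28, 1.06, 6.15, 8.37 and 4.87 normalised counts of cd28, against 6.96 to 10.4 in young mutants (-0.99, SE 0.39, adjusted p = 0.128). The values of lck were 10.7, 9.50, 18.5, 10.9 and 9.75 in old mutant against 13.8, 37.1, 22.5, 27.5 and 11.9 in young mutant libraries (-0.80, SE 0.42, adjusted p = 0.258). For cd79b the old mutant libraries had 4.92, 16.9, 11.4, 6.70 and 14.6 and the young mutant ones 3.45 to 12.4 (0.63, SE 0.46, adjusted p = 0.431).

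Old mutants differed from old wildtype fish in cd79b. The 5 old mutant libraries, at 4.92 to 16.9 normalised counts, all lay above the 5 old wildtype ones, at 0 to 4.58 (2.13, SE 0.46, adjusted p = 0.00506). This was 1 of 5 genes, against 1.23% upregulated, 1.58% downregulated and 2.81% called in either direction. The change was 1.31 to 2.76 over the alternatives, and the call was kept wherever the gene was tested. The co-receptor cd4-1 was at 12.3, 10.6, 10.5, 10.9 and 7.80 in old mutant, against 4.58, 2.95, 3.22, 1.71 and 12.7 in old wildtype libraries (1.15, SE 0.43, adjusted p = 0.0746), where the fifth wildtype library was the exception. Without it the change was 1.51 (adjusted p = 0.0223).

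The difference between the age effects, tested as an interaction, was also called for cd79b alone, 1 of 5, against 2.58% in this direction, 3.46% in the other and 6.04% in either. The log2 change with age was 0.63 in mutants and -2.70 in wildtype fish, a difference of 3.32 (SE 0.65, adjusted p = 0.00220). For cd28 the age effects were -0.99 in mutants and -2.58 in wildtype, a difference of 1.59 (SE 0.55, adjusted p = 0.0572) that was called in DESeq2 (1.66, adjusted p = 0.0318), with a pseudocount of 4 (1.49, adjusted p = 0.0112) and when young wildtype library 1, old wildtype library 2 or old mutant library 2 was left out (1.74, 1.801 and 1.92, adjusted p = 0.0493, 0.0381 and 0.0124). Without the libraries high in pineal genes the interaction of cd79b was 4.64 (adjusted p = 0.00340).

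**Figure D5:**
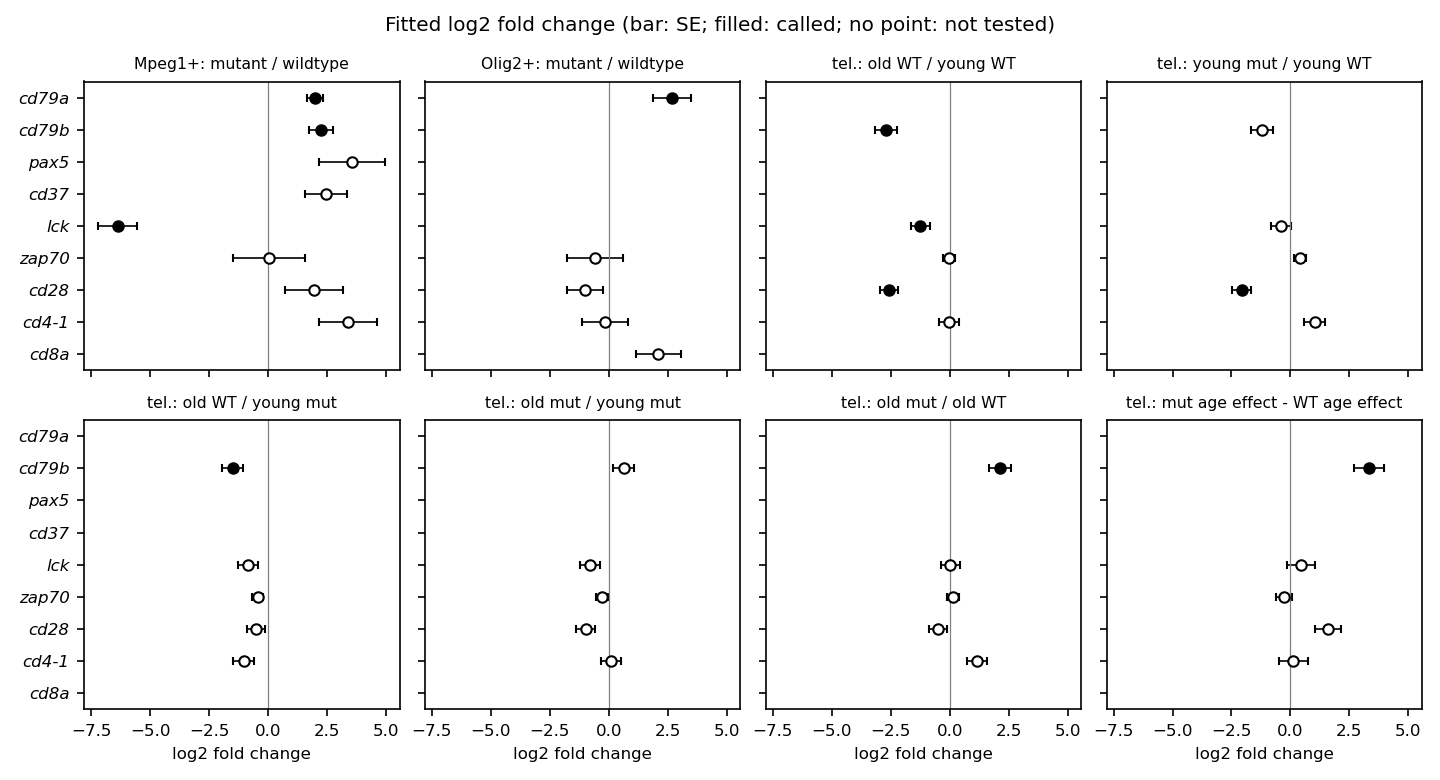
Fitted log2 fold change with its SE for each lymphocyte gene in the 8 comparisons, with filled points for called genes and no point where a gene was not tested. The B cell genes lie to the right in Mpeg1+ cells and cd79b to the left with age in wildtype telencephalon, and the point of lck in Mpeg1+ cells (all mutant libraries at 0) depends on the added count and is not a measured fold.

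By level, cd28 was ordered young wildtype (42.5 ± 8.55 normalised counts, SD, n = 5), young mutant (9.20 ± 1.36), old wildtype (6.89 ± 3.65) and old mutant (4.75 ± 2.78), and only the step between the first 2 exceeded the spread. For cd79b the order was young wildtype (16.1 ± 5.66), old mutant (10.9 ± 5.08), young mutant (6.76 ± 3.74) and old wildtype (1.92 ± 1.72), where young wildtype and old mutant were not compared by a test, old and young mutant did not differ beyond their spread, and young mutant and old wildtype differed by the test above. The kinase zap70 varied least, with the lowest mean, 26.4 ± 5.81, in old wildtype telencephalon and the highest, 36.0 ± 6.33, in young mutant.

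The remaining 4 genes had too few reads in telencephalon to be tested in the filtered table. Over all 20 libraries cd79a had 0 to 3 reads, cd37 0 to 5, pax5 0 to 9 and cd8a 0 to 6 per library. Without the filter none of them was called in any of the 6 comparisons, and the lowest unadjusted p was 0.0469, for cd37 in old against young wildtype (-0.92, adjusted p = 0.118). At this depth a difference in these genes was not detectable, which does not show that it is absent.

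Other lymphocyte genes moved in both directions with age in wildtype fish, where 5.21% of all genes were higher and 5.66% lower. Among those that fell were the adaptor genes GRAP2, at 36.7 to 58.4 normalised counts in old wildtype against 79.6 to 110.2 in young wildtype (-1.03, adjusted p = 0.000151), and grap2b, at 35.9 to 88.2 against 126 to 149 (-1.01, adjusted p = 0.00159). The homing receptor gene CCR6 fell as well, with 4.58 to 13.7 in old and 15.8 to 29.3 in young wildtype (-1.41, adjusted p = 0.00140). Others rose. In old wildtype telencephalon the inhibitory B cell receptor gene cd22 was at 46.1 to 56.3 normalised counts, against 8.69 to 21.5 in young wildtype (1.61, SE 0.26, adjusted p = 0.000126), and cd40 was at 245 to 373 against 97.8 to 126 (1.33, adjusted p = 2.85e-06). The T cell receptor chain gene cd247 was higher too, with 7.86 to 12.1 in old wildtype and 1.22 to 4.01 in young wildtype (1.72, adjusted p = 0.00444), as was THEMIS, a T cell signalling protein gene (2.00, adjusted p = 0.00182). Within the lists, B cell receptor signalling had 1 gene higher and 2 lower of 21, B cell identity 2 higher and 1 lower of 13, T cell receptor signalling 2 higher and 5 lower of 22, T cell identity 2 lower of 22, cytotoxic genes 1 lower of 5, recombination genes 1 higher and 1 lower of 11 and pan-leukocyte genes 3 lower of 18. The list medians, in the same order, were 0.07, -0.11, -0.04, -0.17, -0.31, -0.05 and 0.09, beside -0.01 over all genes. In every comparison the lists also hold some of the 9 lymphocyte genes, so their counts include calls given above, here cd79b and lck.

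In young mutants against young wildtype, THEMIS (2.03, adjusted p = 0.00210) and cd40 (1.02, adjusted p = 6.30e-05) were again higher. The homing receptor gene CCR9 was at 62.9 to 197 normalised counts in young mutants and 23.9 to 45.5 in young wildtype (1.61, adjusted p = 0.00331). It was then lower in old mutants, at 17.9 to 66.1, than in young mutants (-1.45, adjusted p = 0.0267). Of the lists, B cell identity had 1 of 13 higher, T cell identity 1 higher and 2 lower of 22, T cell receptor signalling 1 higher and 2 lower of 22, cytotoxic genes 1 of 5 lower and pan-leukocyte genes 3 of 18 higher. Over all genes 4.97% were higher and 3.82% lower.

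In old mutants against old wildtype the tyrosine kinase gene BTK of the B cell receptor pathway was higher beside cd79b, at 37.8 to 51.7 against 12.8 to 29.997 normalised counts (1.02, SE 0.26, adjusted p = 0.0147), which made 2 of 21 genes of that list. B cell identity had 1 of 13 higher, T cell identity 2 of 22 higher (rorcb and il2rb), cytotoxic genes 1 of 5 lower and recombination genes 1 of 11 lower. Over all genes 1.23% were higher and 1.58% lower. In old against young mutants the lymphocyte lists held calls only in T cell identity. There 2 of 22 genes were lower, CCR9 and il7r, against 1.02% of all genes.

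Markers of other cells were read in the same libraries. Microglia and macrophage genes summed to 16238 to 21286 normalised counts in old mutant and 17957 to 25449 in old wildtype telencephalon, and to 17095 to 20334 in young mutant and 14451 to 20694 in young wildtype. Leptomeningeal fibroblast genes were more variable, with sums of 76980 to 330391 in old mutant and 121185 to 225028 in old wildtype libraries. In young fish they were at 190758 to 245406 in mutant and 91181 to 191150 in wildtype libraries, ranges that barely met. Between old and young wildtype fish the sums did not overlap for ependymoglia (177226 to 210926 in old against 128348 to 173295 in young), neurons (212530 to 228671 against 190518 to 209421) and neutrophils (1361 to 1632 against 1033 to 1331), and all 3 sums were higher in old fish. By single genes, 0 of 14 ependymoglia genes, 1 of 17 neuron genes (higher) and 0 of 7 neutrophil genes were called. Over all genes 5.21% were higher and 5.66% lower. The list medians were 0.16, 0.16 and 0.40, and a sum is weighted towards the most abundant genes of its list. Damage and heat shock genes were lower in young mutant, at 29543 to 31747, than in young wildtype libraries, at 38132 to 50890. Pineal genes were unevenly spread, as given above. The part of these markers in the changes of cd28, cd79b and lck was not tested, beyond the values without the libraries high in pineal genes.

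Genes with the most similar pattern over the 20 telencephalon libraries were named for each gene tested, as a description that rests on shared groups and libraries. The gene most like cd28 was CCDC25 (Pearson r = 0.95), followed by cyp46a1.2 (r = 0.93), a cholesterol hydroxylase gene, whose mean was 155 and 147 normalised counts in old mutant and old wildtype and 190 and 385 in young mutant and young wildtype. The genes most like cd79b were MTMR6 (r = 0.89) and EVL (r = 0.88), and those most like lck were dhrs4 (r = 0.82) and exo1 (r = 0.80). Among themselves the lymphocyte genes ranged from r = 0.62 between zap70 and cd4-1 and r = 0.51 between lck and cd28 to r = -0.46 between cd28 and cd4-1. The similar genes were the highest of all genes tested, so their r cannot be compared with that of these fixed pairs.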

How the data were processed

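RNA-seq of 35 zebrafish libraries was used. The authors mapped reads with STAR to GRCz10 and deposited gene counts divided by DESeq2 size factors, a library-scaled signal, as 1 table per population. The DESeq2 release is given as 3.9 in the submitters' processing notes. Whole reads were recovered (100% within 1e-06) and summed to depth; 0 value columns lacked a sample. Symbols came from a table of Ensembl gene names, which named 21952 of 24030 identifiers in telencephalon, 22880 of 25248 in Olig2+ and 21137 of 23158 in Mpeg1+ cells.

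Genes with a mean of at least 5 were tested on log2(value + 1) with limma 3.58.1 (trend, robust; R 4.3.3) and Benjamini-Hochberg adjustment over all genes of a table, the 4 telencephalon groups in 1 model. The mean was taken over all libraries of a table, so a gene near 0 in 1 group could be tested only through a group where it was high. Calls needed adjusted p no larger than 0.05 and a log2 change of 1 or more in size. Alternatives were pseudocounts of 0.25 and 4, no filter, a filter at 20, equal totals, TMM, edgeR 4.0.16, DESeq2 1.42.0, a replicate block, each library left out, only the 2 groups compared, and leaving out or averaging doubted libraries. Averaging together with leaving out wildtype Mpeg1+ 2 was chosen after seeing the data.

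The members and the gene lists were chosen with earlier results of these data known. Named genes were the 9 members, up to 6 called genes per list and comparison, the most abundant genes of marker lists (csf1ra, P2RY12, OLIG2, SOX10, olig1 and mbpa were picked after their values were seen), and the 3 most similar per member, of which some are given. The immunoglobulin and T cell receptor genes were picked by name pattern after the files were read. On simulated data with 200 changed genes, 8-fold changes were called in 27 of 66 genes in the Mpeg1+, 36 of 66 in the Olig2+ and 59 of 66 in the old against young wildtype design, and unchanged genes 2, 2 and 4 times. The simulated libraries were drawn independently, without alike pairs. Tables were handled in Python 3.11.15 with pandas 2.3.3, and plots drawn with matplotlib 3.10.9. Not every gene that the rule for named genes covers is reported here.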

Additional observations from a re-analysis of the deposited data

Results flagged for a closer look

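Within groups of 4 or 5 libraries, 6 of the 49 gene and group combinations examined had a library far from the others by Dixon's criterion, where chance alone gives about 1 in 20. Mutant Olig2+ library 1 had 37.3 normalised counts of cd28, with the next library at 8.57, and wildtype Olig2+ library 3 had 8.597 of pax5, with the next at 3.18. In telencephalon, young wildtype library 1 had 27.4 of cd28 (next 44.5), young wildtype library 4 had 11.4 of pax5 (next 3.73), old wildtype library 5 had 12.7 of cd4-1 (next 4.58) and old mutant library 3 had 18.5 of lck (next 10.9). Several of these values rest on few reads.

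The age effect on cd79b differed between the genotypes, with an interaction of 3.32 on the log2 scale in telencephalon (limma, adjusted p = 0.00220).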

How the results depend on the processing

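Over 43 results of single genes and 1126 alternatives, 1070 kept their side of the threshold, 35 lost the call, 21 gained it and 0 called changes turned round. Among the 1070, 42 uncalled changes in 8 results changed sign. The count of called members moved as follows, and the cause was not tested unless given. In Mpeg1+ cells it was 3 of 8, 0 with a replicate block, 0 with alike mutant libraries averaged, 1 with wildtype library 2 also left out, and 1 to 5 with each library left out. In Olig2+ cells it was 1 of 5, 0 in edgeR, 2 in DESeq2 and 0 to 1 with each library left out. A filter at 20 gave 0 in each telencephalon comparison, since only zap70 was then tested. Old against young wildtype stayed at 2 to 3 with each library left out. Young mutant against young wildtype went from 1 to 2 in DESeq2, without the libraries high in pineal genes and with only the 2 groups compared, and was 1 to 2 with each library left out. Old wildtype against young mutant went from 1 to 0 with a pseudocount of 4 and without the libraries high in pineal genes, and was 0 to 2 with each library left out. Old mutant against old wildtype was 1 to 2 and the interaction 1 to 2 with each library left out, and the interaction was 2 with a pseudocount of 4 and in DESeq2.

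Replicate numbers were not used as pairs in the main test. Deviations of same-numbered libraries correlated at -0.01 to 0.00 in Mpeg1+, 0.00 to 0.14 in Olig2+ and -0.34 to 0.48 in telencephalon. Libraries with different numbers were not set beside them, so these values cannot show whether the numbers pair the samples. With the replicate block the calls of cd79a (adjusted p = 0.168), cd79b (0.214) and lck (0.0689) in Mpeg1+ cells were lost, and no other call of a member changed.

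Low read counts limit most values in telencephalon. In the simulated Mpeg1+ design, with 3 wildtype libraries of uneven depth, 0 of 67 changes of 2-fold were called. The same simulation called 8 of 67 changes of 4-fold and 27 of 66 of 8-fold. Its libraries were drawn independently, so it does not give the recovery of a design with alike mutant pairs.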

Other observations

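Antibody and T cell receptor genes themselves, 62 identifiers chosen by name after the data were seen, were read beside the 9 lymphocyte genes. In Mpeg1+ cells, the heavy chain gene ighm was at 619, 635, 465 and 454 normalised counts in the libraries labelled mutant, against 4619, 479 and 5006 in those labelled wildtype (-2.05, adjusted p = 0.134). The heavy chain gene ighd was at 94.5, 99.7, 92.3 and 149 against 5.96, 41.1 and 42.9 (2.201, adjusted p = 0.118). A further heavy chain gene, ight, changed by 0.88 (adjusted p = 0.532). The median change over the 23 antibody and T cell receptor genes tested was 1.87, beside 0.05 over all genes. Of these 23 genes 0 were called, against 4.93% of all genes higher and 3.57% lower. The light chain gene igic1s1 was at 357 to 531 against 23.9, 594 and 41.5. In the sum of 9 light chain genes the libraries labelled mutant held 938 to 1195 normalised counts, whereas the wildtype libraries held 50.7, 1386 and 109. Wildtype library 2 thus had a low ighm and a high light chain level, as the mutant libraries did. In lck (167 normalised counts against 0) and cd4-1 (0.790 against 129 to 187) it was unlike them. Over the genes tested its log2 values correlated with those of the mutant libraries at r = 0.71 to 0.72. That was below wildtype library 1 (0.76 to 0.77) and wildtype library 3 (0.78 to 0.79). Within its own group, wildtype library 2 was at r = 0.70 with wildtype library 1 and 0.73 with wildtype library 3. Those libraries were at 0.86 with each other. Wildtype library 2 was thus far from both groups, and these values cannot show which it is more like. The T cell receptor beta gene trbc1 was at 70.14, 63.5, 72.6 and 72.4 in the libraries labelled mutant, in which lck had no read, against 41.7, 64.0 and 54.2 in those labelled wildtype (0.40, adjusted p = 0.644).

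In telencephalon only 2 of the 62 identifiers, ighm and trbc1, passed the filter, and both did so through groups other than young wildtype. There ighm was at 35.5, 9.83, 70.08, 28.2 and 28.8 normalised counts in old wildtype, against 8.70, 4.87, 0, 1.26 and 0.934 in young wildtype libraries (3.32, SE 0.85, adjusted p = 0.00542). Old mutants split, with 92.7 and 23.2 in libraries 1 and 2 and 1.67 to 4.87 in the other 3. The same fish group, old wildtype, had the lowest cd79b. The gene trbc1 was at 6.96 to 19.0 in young mutant, against 0 to 1.87 in young wildtype libraries (2.80, SE 0.40, adjusted p = 4.40e-05), and at 1.97 to 8.86 in old wildtype (1.85 against young wildtype, adjusted p = 0.00160), whereas cd28 was lower in both of these groups.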
